A study of Danio rerio with 6 samples.

Results

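The vascular endothelial growth factor (VEGF) receptors and ligands were read from RNA sequencing of larval zebrafish tail fins after amputation. The set held 9 genes of the 24923 in the deposited table, 4 receptors (flt1, kdr, kdrl and flt4) and 5 ligands (vegfaa, vegfab, vegfba, vegfc and vegfd). Of these, 8 were found by their symbol. The remaining gene, vegfd, stood in the table under its older symbol figf and was matched by its gene identifier. The members were chosen by family membership, with earlier results of these data known.

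Sunitinib inhibits several receptor tyrosine kinases, among them the VEGF receptors. The treated group was kept in 8 μM sunitinib and the control group without it, from 2 days post-fertilization. Both groups had the same 0.1% DMSO, the solvent of the drug. All larvae had the tail fin cut at 3 days, and tissue was taken 6 hours post-amputation, so there was no uncut group. Each group had 3 biological replicates, and each replicate was a pool of fin tissue from more than 60 larvae. The labels name the AB strain and a Tg(MPEG-GFP) line, in which a macrophage promoter drives GFP, without saying which line gave each pool. Whether the pools came from separate clutches is also not given, so the p-values measure the spread between these pools.

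VEGF ligands are secreted proteins that bind receptor tyrosine kinases on blood and lymphatic endothelial cells. Kdr-type receptors carry the main signal for vessel growth, and Flt1 binds Vegfa tightly and in its soluble form acts as a trap. Flt4 answers to Vegfc in veins, lymphatics and sprouting vessels, and in mammals to Vegfd as well. Zebrafish carry a pair of Vegfa genes, vegfaa and vegfab, and a pair of Kdr-type receptor genes, kdrl and kdr, of which kdrl is the usual marker of blood vessels in the larva. The RNA levels given here are of receptor and ligand genes, while the drug acts on the receptor proteins.

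All 4 receptor genes had lower values with sunitinib, and flt1, flt4 and kdrl were lower in every treated replicate than in every control replicate. On average these genes stood at 0.59, 0.70 and 0.73 times their DMSO level. By normalised reads 3 of the 8 tested members were thus lower without overlap, beside 10.8% of all genes tested, and 2, vegfd and vegfaa, were higher without overlap, beside 9.15%. Among the ligands, vegfd was higher in every treated replicate, at 1.67 times the DMSO level, while vegfc lay almost level between the groups. No member passed the adjusted p of 0.05 over the 17309 genes tested, and neither did any other gene in edgeR, where 0% of genes were called and the smallest adjusted p was 0.19. With unadjusted p-values 2359 genes lay under 0.05. DESeq2, run on the same reads, called 43 genes, none of them a member (vegfd received no adjusted p there), and limma on FPKM called 1. At the unadjusted p under 0.05, 3 of the 8 tested members were lower, beside 6.12% of all genes tested, and 1 was higher, beside 7.51%.

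Library totals ran from 13394060 to 15294706 estimated reads. DMSO replicate 1 differed most from the others. Compared gene by gene with each of them, its counts gave a chi-square of 35.27 to 61.32 for each degree of freedom, and the pairs of other libraries gave 8.65 to 24.76. It also had the smallest share of reads on skeletal muscle markers (20.7%, against 24.5% to 28% in the other libraries). Values without this replicate are given for flt1, kdrl, flt4 and vegfaa and for several of the lists and list genes. Endothelial genes were present in every library, and each of the 33 markers on the endothelial list had reads in at least 1 library. In bulk tissue a smaller number of endothelial cells cannot be told apart from less RNA in each of them.

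The level of each gene was compared as TPM, a measure scaled to gene length and to the size of the library. TPM ran low in Sunitinib replicate 1 beside the normalised reads of that library, as given for kdrl below. Sums of TPM share this limit. With sunitinib the order of mean TPM was vegfaa, kdrl, vegfab, vegfd, flt4, vegfc, flt1, kdr and vegfba, and with DMSO it was kdrl, vegfaa, flt4, vegfab, flt1, vegfc, vegfd, kdr and vegfba. In both groups all of these genes were weakly expressed, with no replicate above 4.64 TPM. With sunitinib the ranges of the first 5 genes overlapped from each to the next, as did those of vegfc and flt1, so their order is not firm. With DMSO the neighbours that overlapped were kdrl and vegfaa, vegfaa and flt4, vegfab and flt1, and vegfc and vegfd. The low places of kdr and vegfba did not overlap with the gene above in either group.

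**Figure D1:**
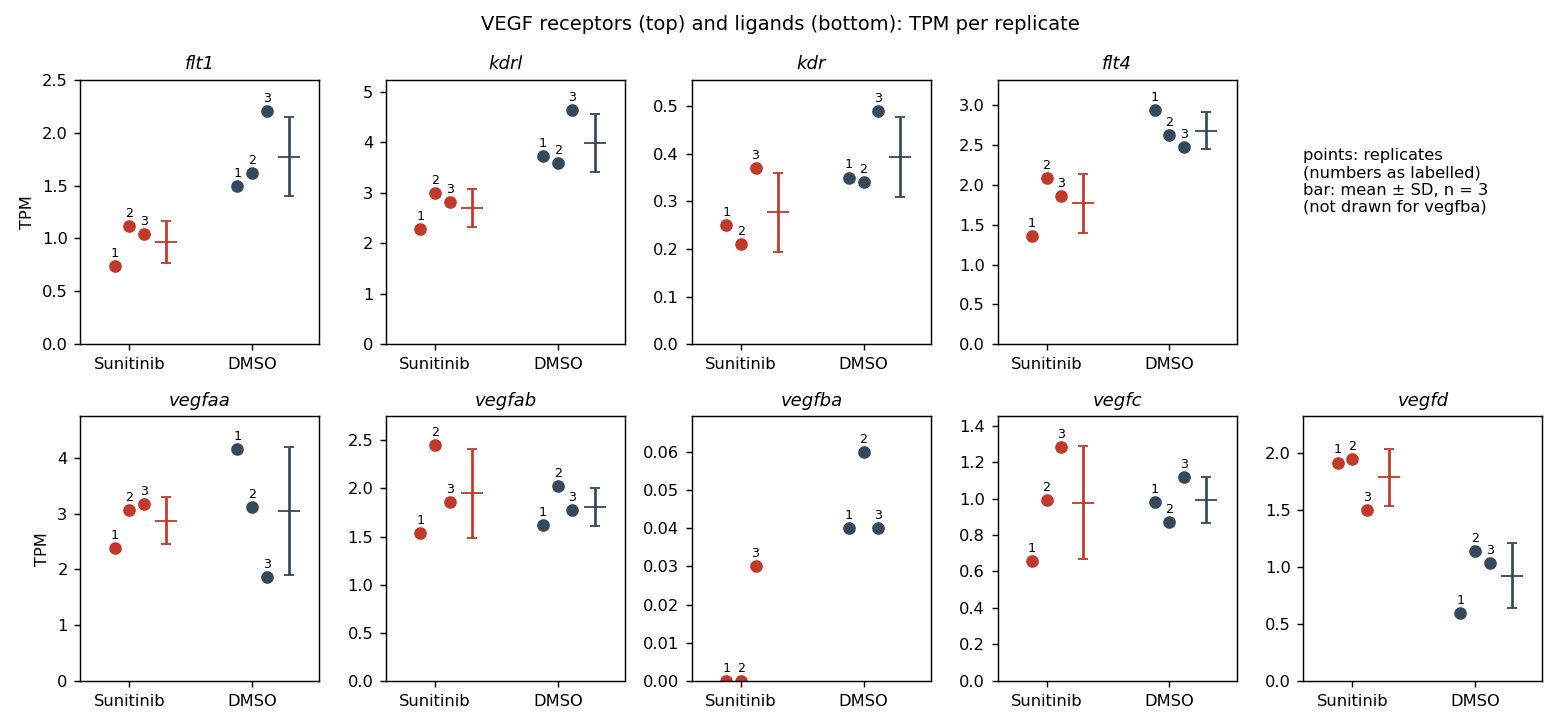
TPM of the 4 VEGF receptor genes (top) and the 5 ligand genes (bottom) in each replicate, with sunitinib on the left and DMSO on the right of each panel. Points are replicates with their number and bars are mean ± SD (n = 3 per group), left out for vegfba. The groups are apart for flt1, kdrl, flt4 and vegfd. For vegfba, at 0.06 TPM or less, they are apart by TPM but overlap by normalised reads, with 2 reads each in Sunitinib replicate 3 and DMSO replicates 1 and 3.

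The receptor flt1 had 0.74, 1.12 and 1.04 TPM with sunitinib, against 1.5, 1.62 and 2.2 TPM with DMSO. The highest treated pool lay below the lowest control pool, and DMSO replicate 3 was the highest of all. The gene rested on 42 to 54 reads in a treated library and 70 to 105 in a control library. Normalised CPM are read numbers scaled to the TMM-adjusted library size and not to gene length. On this scale flt1 averaged 3.35 ± 0.259 with sunitinib and 5.74 ± 1.16 with DMSO (SD, n = 3 each). This gave a log2 fold change of -0.77 ± 0.21 (SE; 95% interval -1.22 to -0.32), with an adjusted p of 0.285 in edgeR. Left out in turn, the replicates moved the log2 fold change between -0.88 (without DMSO replicate 1) and -0.6 (without DMSO replicate 3). The table does not part the soluble from the membrane-bound form of flt1.

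The main blood vessel receptor kdrl was the most abundant receptor in every library. It had 2.28, 2.99 and 2.82 TPM with sunitinib, against 3.73, 3.58 and 4.64 TPM with DMSO. The groups did not overlap, and again DMSO replicate 3 was highest. The treated pools lay close together in CPM, at 18.9 ± 0.515 with sunitinib and 25.8 ± 3.3 with DMSO (SD, n = 3 each). By TPM Sunitinib replicate 1 stood lower, with 2.28 TPM at 19.1 CPM, against 2.99 TPM at 18.3 CPM in Sunitinib replicate 2. The log2 fold change was -0.45 ± 0.14 (SE; 95% interval -0.76 to -0.15; adjusted p = 0.293, edgeR). It came to -0.35 without DMSO replicate 3 and to -0.49 without DMSO replicate 1. The read numbers of kdrl were not whole in the deposited table.

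The lymphatic and venous receptor flt4 had 1.36, 2.09 and 1.86 TPM with sunitinib, against 2.94, 2.63 and 2.48 TPM with DMSO. Here too every treated pool was lower than every control pool. In this gene DMSO replicate 1 was highest, unlike in flt1 and kdrl. Normalised CPM stood at 9.64 ± 0.73 with sunitinib and 13.8 ± 1.1 with DMSO (SD, n = 3 each), a log2 fold change of -0.51 ± 0.15 (SE; 95% interval -0.84 to -0.19; adjusted p = 0.293, edgeR). Without DMSO replicate 1 it was -0.45.

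The second Kdr-type receptor, kdr, was the rarest receptor, with 0.25, 0.21 and 0.37 TPM with sunitinib and 0.35, 0.34 and 0.49 TPM with DMSO. Sunitinib replicate 3 lay above 2 of the control pools, so the groups overlapped. The log2 fold change was -0.36 ± 0.3 (SE; 95% interval -1.0 to 0.29; adjusted p = 0.594, edgeR). It was -0.1 without Sunitinib replicate 2 and -0.6 without Sunitinib replicate 3. With 19 to 44 reads per library, a change of the size of those in flt1 and kdrl lies inside this interval, and so does none.

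Summed over the 4 receptors, the level was 4.63, 6.41 and 6.09 TPM with sunitinib, against 8.52, 8.17 and 9.81 TPM with DMSO. The shares of kdrl and flt4 in this sum differed little. The share of kdrl in it was 47.4% ± 1.61 with sunitinib and 45% ± 2.02 with DMSO, and that of flt4 was 30.8% ± 1.64 with sunitinib and 30.7% ± 4.8 with DMSO (SD, n = 3 each). The share of flt1 was 16%, 17.5% and 17.1% with sunitinib, against 17.6%, 19.8% and 22.4% with DMSO, and so it was lower in each treated pool. The ratio of flt1 to kdrl within each library, taken from the same TPM, was also lower in each treated pool. On the log2 scale this ratio averaged -1.49 ± 0.11 with sunitinib and -1.18 ± 0.12 with DMSO (SD, n = 3 each), a difference of -0.31. An exact permutation test, two-sided, gave p = 0.1 for it, the smallest that 3 pools against 3 allow, and an adjusted p of 0.3 over the 3 ratios tested. The ratio of kdr to kdrl was -3.32 ± 0.46 with sunitinib and -3.35 ± 0.09 with DMSO (exact permutation p = 0.9, adjusted p = 0.9).

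**Figure D2:**
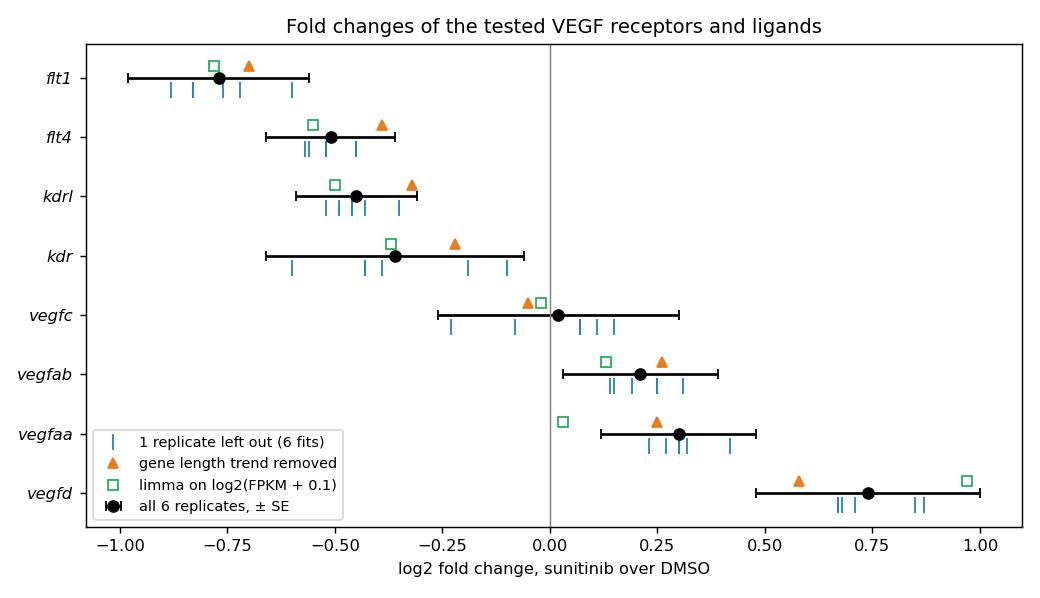
Log2 fold change of sunitinib over DMSO for the 8 VEGF genes tested, in edgeR with all replicates (black, ± SE), with each replicate left out (blue ticks), with the trend on gene length removed (orange) and from FPKM with limma (green). The 4 receptors lie below 0 under each of these, with flt1 at -0.77, while vegfd stays above 0 and vegfc crosses it.

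The ligand vegfd, which in mammals binds the Flt4 receptor, was the member with the largest positive value. It had 1.92, 1.95 and 1.5 TPM with sunitinib, against 0.6, 1.14 and 1.04 TPM with DMSO. All treated pools lay above all control pools, with 36, 42 and 30 reads with sunitinib and 19, 20 and 25 reads with DMSO. Its log2 fold change was 0.74 ± 0.26 (SE; 95% interval 0.17 to 1.31), with an adjusted p of 0.309 in edgeR. Without Sunitinib replicate 2 the unadjusted p was 0.0505, and it was 0.0505 in DESeq2 with all replicates, so vegfd no longer counted as higher there. By mean TPM vegfd ranked above flt4, vegfc and flt1 with sunitinib and below all of them with DMSO. Its share of the summed ligand TPM was 29.5%, 23.1% and 19.1% with sunitinib, against 8.11%, 15.8% and 17.8% with DMSO. Neither the rank nor the share is firm, since TPM depends on the length assigned to vegfd and vegfaa, which varied between libraries as given below. DMSO replicates 1 and 2 had 19 and 20 reads of vegfd but 0.6 and 1.14 TPM.

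The Flt4 ligand gene vegfc, which guides vein and lymphatic growth, did not follow vegfd. It had 0.66, 0.99 and 1.28 TPM with sunitinib and 0.98, 0.87 and 1.12 TPM with DMSO. The control pools fell within the range of the treated pools. Its log2 fold change was 0.02 ± 0.28 (SE; 95% interval -0.58 to 0.61; adjusted p = 0.985, edgeR), and its sign turned with the choice of replicates.

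The main Vegfa gene, vegfaa, gave 2 different pictures by reads and by TPM. By normalised reads it had 6.77, 6.54 and 6.73 CPM with sunitinib, against 6.29, 5.12 and 4.84 CPM with DMSO, and the groups did not overlap. By TPM it had 2.39, 3.06 and 3.17 with sunitinib and 4.16, 3.12 and 1.86 with DMSO, and the control pools lay on both sides of the treated ones. Reads gave a log2 fold change of 0.3 ± 0.18 (SE; 95% interval -0.08 to 0.69; adjusted p = 0.455, edgeR). On the log2(FPKM + 0.1) scale limma gave 0.03. Without DMSO replicate 1 the log2 fold change in edgeR was 0.42 (adjusted p = 0.372), and vegfaa then counted as higher at the unadjusted threshold.

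The length assigned to the gene in each library was 1 difference between the scales, and the scaling of the libraries was another. In Sunitinib replicate 1 vegfaa had 2.39 TPM at 6.77 CPM. Sunitinib replicate 2 had 3.06 TPM at 6.54 CPM, although the length assigned there was greater. The effective length, which is the read number divided by the FPKM and the library total, was 1829, 1926 and 1635 bp for vegfaa with sunitinib, against 1258, 1342 and 2178 bp with DMSO. Between the longest and the shortest value lay a factor of 1.73, larger than for 99.6% of the 14709 genes with an FPKM of at least 0.5 in every library, for which the median factor was 1.01. For vegfd the effective length was 899, 1233 and 1038 bp with sunitinib and 1842, 988 and 1352 bp with DMSO, a factor of 2.05. The receptors flt1, kdrl and flt4 had factors of 1.03 to 1.05, vegfab had 1.01 and vegfc 1.14. In neither vegfaa nor vegfd did the lengths separate the groups. The rounding of the deposited FPKM leaves room for 1257 to 1259 bp in the shortest library of vegfaa and 1830 to 1854 bp in the longest of vegfd. Which transcripts of these genes were read was not tested.

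**Figure D3:**
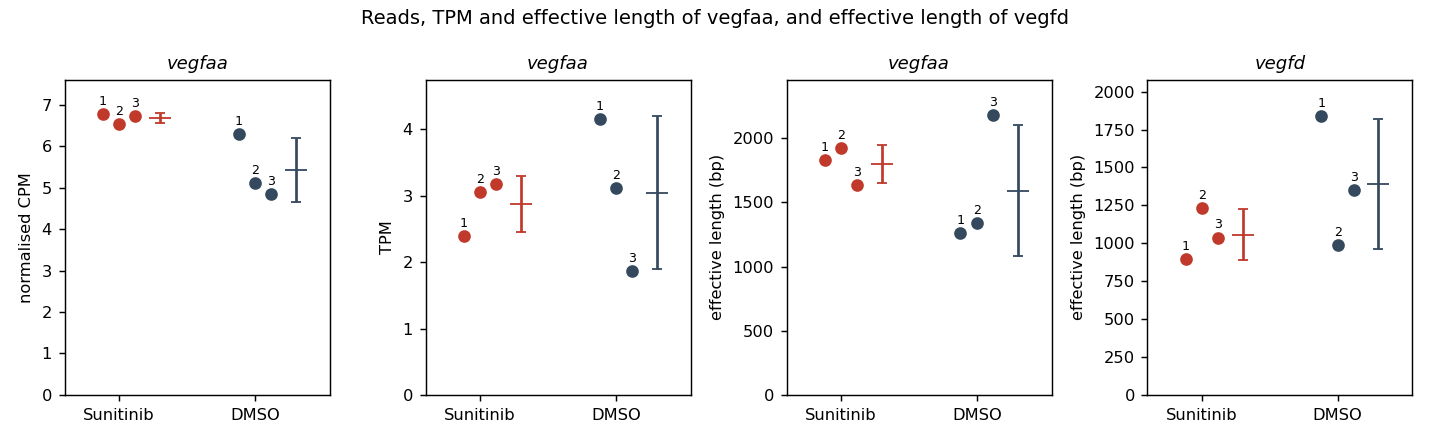
Normalised CPM, TPM and effective length (bp) of vegfaa, and effective length of vegfd, in each replicate with sunitinib (left) and DMSO (right), with mean ± SD (n = 3). By CPM the 3 treated pools (6.54 to 6.77) lie above the 3 controls (4.84 to 6.29), whereas by TPM they overlap, and the lengths of vegfaa run from 1258 to 2178 bp.

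The second Vegfa gene, vegfab, had 1.54, 2.45 and 1.86 TPM with sunitinib and 1.62, 2.02 and 1.78 TPM with DMSO. The groups overlapped, and the log2 fold change was 0.21 ± 0.18 (SE; 95% interval -0.17 to 0.6; adjusted p = 0.595, edgeR). The ratio of vegfaa to vegfab on the log2 scale of TPM was 0.57 ± 0.23 with sunitinib and 0.68 ± 0.65 with DMSO (SD, n = 3 each), with an exact permutation p of 0.9 and an adjusted p of 0.9. The spread of the controls comes with the lengths of vegfaa given above.

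The Vegfb gene vegfba was hardly read, with 0, 0 and 2 reads with sunitinib and 2, 3 and 2 reads with DMSO. It was too low for the test. Other ligands of the family were also too low for the test. The placental growth factor gene pgfb had 6, 9 and 4 reads with sunitinib, against 13, 8 and 14 reads with DMSO. The gene vegfbb had 1 to 3 reads with sunitinib and 1 with DMSO in each library, and pgfa had a single read in Sunitinib replicate 2. Over the 5 ligand members the summed level was 6.51, 8.45 and 7.84 TPM with sunitinib and 7.4, 7.21 and 5.84 TPM with DMSO, which overlapped.

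Genes that work beside the VEGF receptors were taken from lists written with earlier results of these data known. Over all genes tested 50.5% had a negative log2 fold change, and the median was 0.00. Co-receptors and binding partners, such as the neuropilins and the heparan sulphate proteoglycans, all had negative values (8 of 8, median -0.21). At the unadjusted p under 0.05, 1 of 8 was lower, beside 6.12% of all genes tested. This was nrp1b, a neuropilin that binds VEGF, with 1.93, 1.84 and 1.82 CPM with sunitinib, against 3.28, 2.7 and 3.29 CPM with DMSO (log2 fold change -0.73 ± 0.23 SE, adjusted p = 0.299, edgeR). Its paralog nrp1a was at -0.19, the glypican gene gpc1a at -0.41 and the syndecan gene sdc2 at -0.24. With 1 replicate left out gpc1a ran from -0.63 to -0.27 and sdc2 from -0.34 to -0.15. Of 9 genes that cleave or hold VEGF-C and VEGF-D for activation, 7 had negative values (median -0.22) and 1 was lower, beside the same 6.12%. This was pcsk5b, a proprotein convertase, at -0.41 ± 0.15 (SE, adjusted p = 0.314, edgeR), while its paralog pcsk5a had -0.57 ± 0.29, the protease gene adamts3 had -0.49 ± 0.28 and the matrix protein gene svep1 had -0.24 ± 0.15. For adamts3 the value was -0.23 without DMSO replicate 1 and -0.73 without DMSO replicate 2, and for svep1 it was -0.15 without Sunitinib replicate 1.

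Downstream of the receptors the picture was mixed. Of 57 tested genes of signal transduction, 27 had positive and 30 negative values, with a median of -0.03, and 5 were lower and 1 higher at the unadjusted p under 0.05, beside 6.12% and 7.51% of all genes tested. The median of the list was 0.04 without DMSO replicate 1. The lower ones included rasa1b, a Ras GTPase-activating protein, at -0.63 ± 0.21, the protein kinase C gene prkcba at -0.52 ± 0.18, the p38 kinase gene mapk14b at -0.43 ± 0.17 and nfatc3a, an NFAT transcription factor, at -0.71 ± 0.29 (log2 fold change ± SE). Each of these was lower in all treated pools than in all controls. Without overlap, 7 of the 57 genes were lower and 1 higher, beside 10.8% and 9.15% of all genes tested. Genes of sprouting tip cells, which lead new vessels towards VEGF, had a median of -0.3 over 10 tested, with 8 negative and 2 lower at the unadjusted p, beside 6.12% of all genes tested. The secreted peptide gene apln had 17.3, 15.3 and 15.1 CPM with sunitinib, against 22.4, 18 and 21.1 CPM with DMSO (log2 fold change -0.36 ± 0.15 SE, adjusted p = 0.329, edgeR). The adhesion gene mcamb also had -0.36, as did esm1, an endothelial proteoglycan gene, and the adhesion receptor gene adgrl4 had -0.48 ± 0.28. With 1 replicate left out adgrl4 ran from -0.76 to -0.24, the last without DMSO replicate 1, and esm1 from -0.46 to -0.18, the last without Sunitinib replicate 2.

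Since Vegfa genes are known targets of the hypoxia-inducible factors, genes of that response were set beside them. Of 22 tested, 10 had positive and 12 negative values, with a median of 0.00, and 2 were higher and 1 lower at the unadjusted p under 0.05, shares near the 7.51% and 6.12% of all genes tested. The higher ones were pdk1, a kinase that restrains pyruvate entry into mitochondria, at 0.49 ± 0.14 (adjusted p = 0.285, edgeR) and the lactate dehydrogenase gene ldha at 0.46 ± 0.14 (adjusted p = 0.293). The lower one was arnt2, a partner of the hypoxia-inducible factors, at -0.76 ± 0.21 (SE, adjusted p = 0.285, edgeR). The oxygen sensor gene egln3 had -0.72 ± 0.36, with -1.2 without Sunitinib replicate 1 and -0.46 without Sunitinib replicate 2.

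**Figure D4:**
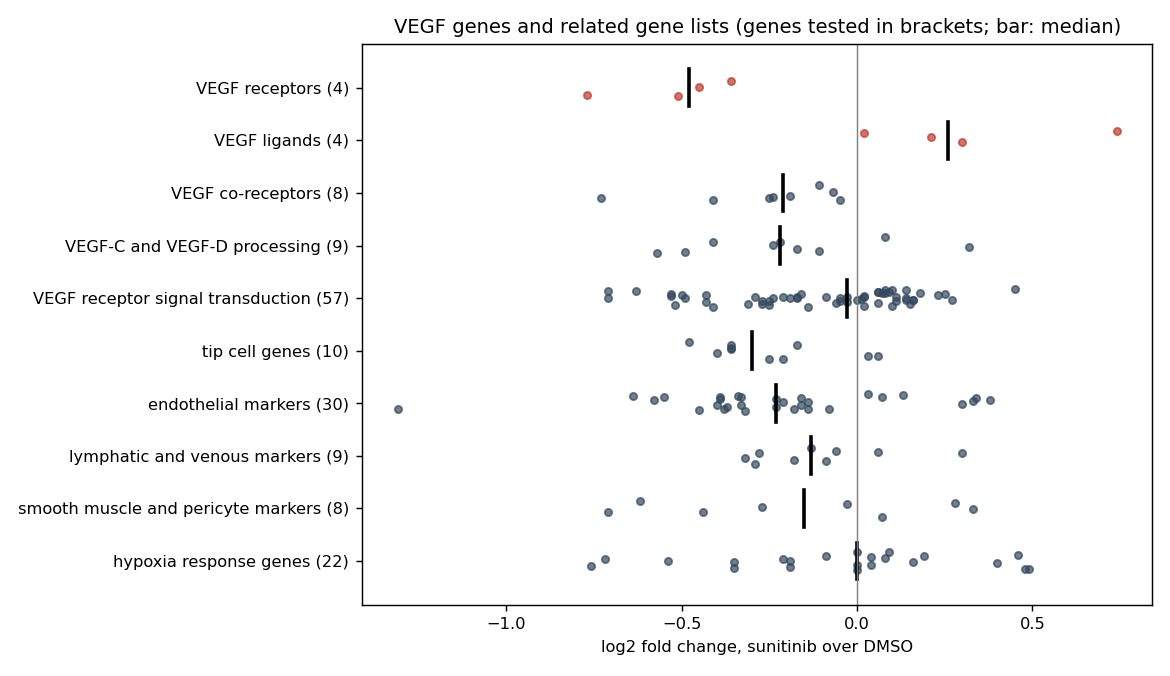
Log2 fold change of sunitinib over DMSO for each tested gene of the VEGF receptors and ligands (red) and of 8 related lists (dark), with the number tested in brackets and the list median as a bar. The receptors have a median of -0.48, the ligands 0.26, the endothelial markers -0.23 and the hypoxia response genes 0.00.

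Markers of the endothelial cells that carry the receptors were also lower on balance. Of 30 tested, 23 had negative and 7 positive log2 fold changes, with a median of -0.23, and 5 were lower and 2 higher at the unadjusted p under 0.05, beside 6.12% and 7.51% of all genes tested. The 9 genes that were lower in all treated pools, beside 10.8% of all genes tested, included cdh5, the junction protein VE-cadherin, at 1.41, 1.14 and 2.15 CPM with sunitinib, against 3.98, 2.84 and 4.84 CPM with DMSO (log2 fold change -1.31 ± 0.29 SE, adjusted p = 0.2, edgeR). The transcription factor gene sox7 was at -0.55 ± 0.17 and myct1a at -0.58 ± 0.2. Against these, 3 of the 30 markers were higher in all treated pools than in all controls, beside 9.15% of all genes tested. They included the endothelial receptor gene gpr182, at 0.38 ± 0.15. The summed level of the list was 116 to 169 TPM with sunitinib and 153 to 171 TPM with DMSO, which overlapped. Its low end of 116 TPM came from Sunitinib replicate 1, where TPM ran low. Only cdh5 of the 30 had a lower log2 fold change than flt1, 4 had a lower one than kdrl, 4 than flt4 and 10 than kdr. Whether the receptors differ from the endothelial markers was not tested. Of 9 lymphatic and venous markers 7 had negative values (median -0.13), and the scavenger receptor gene stab1, at -0.32 ± 0.14, was the 1 lower at the unadjusted p, beside 6.12% of all genes tested. Also on the list, the mannose receptor gene mrc1a was at -0.29, the lymphatic transcription factor gene prox1a at -0.28 and stab2, a paralog of stab1, at -0.13. With 1 replicate left out these ran from -0.37 to -0.17 for mrc1a, from -0.44 to -0.08 for prox1a and from -0.23 to -0.01 for stab2, and without DMSO replicate 1 they were -0.18, -0.08 and -0.01.

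Other cell types were set beside these lists, and their part in the receptor values was not tested. Medians of the log2 fold change were below 0 for markers of macrophages (-0.13 over 15 genes), smooth muscle and pericytes (-0.15 over 8), fin mesenchyme (-0.18 over 16), notochord (-0.17 over 10), pigment cells (-0.28 over 10) and skeletal muscle (-0.04 over 25). They were above 0 for neutrophils (0.09 over 8), epidermis (0.08 over 17), erythrocytes (0.08 over 10) and neural cells (0.04 over 12). Several of these medians rested on single libraries. With 1 replicate left out they ran from -0.25 to -0.03 for macrophages, from -0.33 to -0.07 for smooth muscle and pericytes and from -0.37 to -0.12 for pigment cells. The sign turned for skeletal muscle (-0.15 to 0.05), neutrophils (-0.02 to 0.19) and erythrocytes (-0.05 to 0.22). Without DMSO replicate 1 the median was -0.03 for macrophages, -0.12 for pigment cells, -0.27 for smooth muscle and pericytes, -0.15 for skeletal muscle, 0.19 for neutrophils and 0.22 for erythrocytes. In the same fit the median was 0.19 for epidermis and -0.12 for fin mesenchyme. The median of the 4 receptors was -0.48 and ran from -0.58 to -0.45 with 1 replicate left out. The summed level did not overlap between the groups for macrophage markers (84 to 98.8 TPM with sunitinib and 101 to 113 TPM with DMSO) or pigment cell markers (232 to 320 TPM with sunitinib and 329 to 389 TPM with DMSO). Such sums are weighted towards the abundant genes of a list. Gene by gene, 1 of the 15 macrophage markers and 2 of the 10 pigment cell markers were lower without overlap in normalised reads, beside 10.8% of all genes tested. The summed level overlapped for fin mesenchyme (2005 to 2683 TPM with sunitinib and 2671 to 3102 TPM with DMSO), smooth muscle and pericytes (22 to 33.6 TPM with sunitinib and 27.1 to 32.6 TPM with DMSO) and notochord (828 to 965 TPM with sunitinib and 942 to 1096 TPM with DMSO). In normalised reads, however, 5 of the 16 fin mesenchyme markers were lower without overlap, beside 10.8% of all genes tested. The same held for 3 of the 8 smooth muscle and pericyte markers and 3 of the 10 notochord markers. Among the genes of these lists only 1, a smooth muscle and pericyte marker, was higher without overlap, beside 9.15% of all genes tested.

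The receptors have long transcripts, with effective lengths of 2650 to 5501 bp, so the comparison was repeated with any trend on gene length taken out of each library. Then the log2 fold change was -0.7 for flt1, -0.39 for flt4, -0.32 for kdrl and -0.22 for kdr, with adjusted p = 0.313, 0.366, 0.387 and 0.79 in edgeR. For vegfd, with one of the shortest effective lengths of the set, it was 0.58 (adjusted p = 0.426). The directions of these 5 genes were the same as without the step, and the median of the receptors was -0.35 in place of -0.48.

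Likeness to the members was measured by Pearson's r of log2 normalised CPM over the 6 libraries among 16150 genes of at least 1 CPM on average, as a description of libraries that fall into 2 groups. Among the genes most like flt1 were ddx46, tnni3k, tnfrsf19 and ankhd1, with r of 0.991 to 0.993, and those most like flt4 were ehbp1, hnrnpa1b, rbm4.3, si:ch211-136a13.1 and gpt2l, with r of 0.988 to 0.993. None of these 9 genes is on the endothelial list. Among the members, kdrl ranked 25th in likeness to flt1 (r = 0.975), while flt4 had r = 0.805 and kdr r = 0.648. On the vascular lists the nearest to flt1 were esama (r = 0.949), fli1b (r = 0.929) and cdh5 (r = 0.921), and the nearest to flt4 was sox7, which ranked 8th (r = 0.985). Other genes on these lists went the opposite way. The farthest from flt1 were gpr182 (r = -0.950), lmo2 (r = -0.781) and plvap (r = -0.718), and the farthest from flt4 was gpr182 (r = -0.858). Among the ligands, vegfd, vegfaa and vegfab had negative r to flt1 (-0.774, -0.913 and -0.622) and to flt4 (-0.971, -0.624 and -0.690), while vegfc had r = 0.211 to flt1 and 0.219 to flt4. For genes whose groups lay apart, such as flt1 and flt4, the difference between the groups is part of the spread behind these values. The groups of vegfc, kdr and vegfab overlapped. How much of the spread lay between the groups was not measured.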

How the data were processed

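Strand-specific tail fin libraries gave paired reads of 150 bp, which the authors filtered and mapped to GRCz11 before quantifying genes. The aligner, counter and annotation were not given in the sources used here. As deposited, estimated counts per gene are listed, which are not normalised and of which 92.5% to 93.0% per library are whole numbers. The authors' table also has FPKM and TPM, scaled by the authors for gene length and depth, and a normalised count signal, deposited as counts divided by 1 factor per library, which was not used, nor were the authors' group averages.

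Estimated counts were rounded and tested with edgeR 4.0.16 in R 4.3.3 (TMM, filterByExpr, quasi-likelihood F-test, Benjamini-Hochberg over 17309 genes, threshold 0.05). Between pools, edgeR's common biological variation (BCV) came to 0.153. Fold changes are sunitinib over DMSO, and normalised CPM are TMM-scaled. Intervals are 95% t intervals of the fit. Ratios of TPM were compared by exact permutation. Samples were grouped by their titles. Alternatives were DESeq2's size factors, no filter on low counts, a replicate block, DESeq2 1.42.0, limma 3.58.1 on log2(FPKM + 0.1), removal of a lowess trend on effective length (span 0.3) and leaving out each replicate. Scripts were tested on simulated counts. List members were matched by symbol, then through RefSeq gene identifiers (GRCz12tu), which matched 23102 IDs. The genes named are the members, up to 4 genes with the smallest p of each VEGF, hypoxia, endothelial and lymphatic list, and the 5 genes most like each of the 2 members with the smallest p. Of these, 1 gene is not reported here. The minimum FPKM for effective lengths was chosen after the values were seen. Members and lists were chosen with earlier results of these data known.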

Additional observations from a re-analysis of the deposited data

How the results depend on the processing

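The 3 lower receptors, flt1, flt4 and kdrl, kept their direction and an unadjusted p under 0.05 in all 12 alternatives. These alternatives reuse the same libraries, and the highest unadjusted p was 0.0492 in edgeR, for kdrl without DMSO replicate 3. Log2 fold changes of flt1, flt4 and kdrl ran from -0.88 to -0.6, -0.57 to -0.39 and -0.52 to -0.32, and their adjusted p from 0.159 to 0.59. The number of members higher at the unadjusted p was 0 in DESeq2 and with 1 replicate left out lay between 0 (Sunitinib replicate 2 omitted) and 2 (DMSO replicate 1 omitted). Over all genes, the number called was 43 with DESeq2, 1 with limma on FPKM and 12 when weakly read genes were kept, and with 1 replicate left out it ran from 0 to 3 (3 without DMSO replicate 1, 1 without DMSO replicate 2). The replicate block gave 0 calls, 3 lower members and 1 higher, as without it, with -0.76 for flt1. Replicates that share a number did not deviate together (correlations of -0.17, -0.10 and 0.02), and none correlated best with its own number. The sign of vegfc turned to -0.05 with the length trend removed and -0.02 with limma, and ran from -0.23 to 0.15 with 1 replicate left out. The ratio of kdr to kdrl ran from -0.16 to 0.29 and that of vegfaa to vegfab from -0.42 to 0.23 with 1 replicate left out, and vegfaa to vegfab gave 0.1 on counts plus 0.5. The stab2 value was 0.01 with the length trend removed. Medians moved by more than their spread to -0.35 for the receptors and -0.08 for VEGF-C and VEGF-D processing with the length trend removed. With limma on FPKM they moved to 0.08 for the ligands, -0.31 for the co-receptors, -0.27 for the endothelial, 0.02 for the epidermis, -0.24 for the fin mesenchyme and -0.03 for the neural list. With 1 replicate left out they ran from 0.21 to 0.29 for the ligands, -0.24 to -0.13 for the co-receptors, -0.33 to -0.15 for processing, -0.36 to -0.23 for tip cells, -0.3 to -0.19 for the endothelial, 0.02 to 0.19 for the epidermis, -0.23 to -0.12 for the mesenchyme and 0.01 to 0.12 for the neural list. The cause was not tested. Depth limits kdr, vegfc, vegfd and vegfba, with at most 44 reads per library.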
